A study of Rattus norvegicus with 40 samples.

Results

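Injured rat carotid arteries taken 4 days after balloon angioplasty and treated with a plain carrier gel were compared with arteries of sham-operated rats taken on the same day. The comparison was chosen by sample title and holds 9 of the 40 arrays of the series, 3 of left carotid arteries with gel and 6 of sham arteries. All rats were male Wistar-Kyoto of 3 months. In the first group a Fogarty balloon catheter was drawn through the left common carotid artery, and 500 µl of plain Pluronic F-127 gel, a polymer carrier, was laid on its outer, adventitial side. The sham group was operated on without the balloon, and its labels name no gel, so that injury and gel differ together in this comparison and cannot be told apart. The right carotid arteries of the gel-treated rats, which were neither ballooned nor covered with gel (3 arrays on day 4), the left gel and sham arteries of day 1 (3 and 4 arrays) and arteries of intact rats (6 arrays) are set beside it. Arteries of rats given tPA (tissue plasminogen activator) in the gel enter none of the differences. They enter the shared estimate of the spread, the floor for low values and the choice of probe sets, which were taken over all 40 arrays. Each array holds RNA pooled from 3 vessels, and nothing in the labels ties an array to single animals. P-values therefore measure the spread between these pools.

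A balloon drawn through an artery strips the endothelium, the inner lining, and stretches the media, the layer of smooth muscle. In the days that follow, smooth muscle cells are known to leave their contractile state, enter the cell cycle and lay down a provisional matrix, while leukocytes enter the wall, mostly from its outer layer. The growing inner layer, the neointima, is built later from these cells and their matrix. The whole vessel with its adventitia was measured here, so that a lower signal can come from fewer cells of a type or from less RNA per cell, and bulk arrays cannot tell these apart.

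Values are intensities of Affymetrix rat probe sets, which the authors had scaled to one trimmed mean per array. A difference is the mean log2 intensity of the gel arrays minus that of the sham arrays, and numbers given in brackets behind gene symbols are such differences unless stated otherwise. The brightest probe set stands for a gene. Values under 23.3 were raised to that floor, which understates the differences of dim genes. The number of arrays limits the precision. The spread of log2 differences between 2 arrays of a group (SD over probe sets) was 0.67 to 0.776 among gel arrays and 0.654 to 1.031 among sham arrays. The array medians overlapped (130.6 to 152.1 and 121.8 to 153.8). The ratio of the 3' to the 5' control probes of actin, which is higher where the 5' end gives less signal, was 7.38 to 8.09 on the gel arrays and 11.83 to 23.69 on the sham arrays, with no overlap. That ratio was 11.68 to 13.61 in the right arteries. The 99th percentile of intensity was also lower on the gel arrays (5336 to 5744 against 5857 to 9355). Among the 355 genes in the brightest 10%, with a mean log2 of 11.38 or more, the median difference was -0.28, against 0.06 for the other genes. The part of both measures in the differences below was not tested, and small falls of very bright genes stand beside them.

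Of 3546 genes tested, 449 rose (12.7%) and 287 fell (8.09%) at an adjusted p under 0.05, and the median difference over all genes was 0.03. Over probe sets, 1117 of 5827 passed (19.2%), 657 higher (11.3%) and 460 lower (7.89%). Of the genes that rose, 136 did so by at least 2 log2 units, as did 68 of those that fell. The gel and sham arrays did not overlap for 896 genes (25.3%), and for 654 of the 736 genes called (88.9%). With each of the 9 arrays left out in turn, 385 of the 736 genes kept their call every time. Without gel replicate 1 the number of probe sets called was 723. Probe sets of one gene often differed: of 218 genes called that had further probe sets tested, 125 had at least 1 that did not pass in the same direction, and in 107 no other one did. Where such a probe set belongs to a gene described below, its difference is given or listed at the end.

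**Figure D1:**
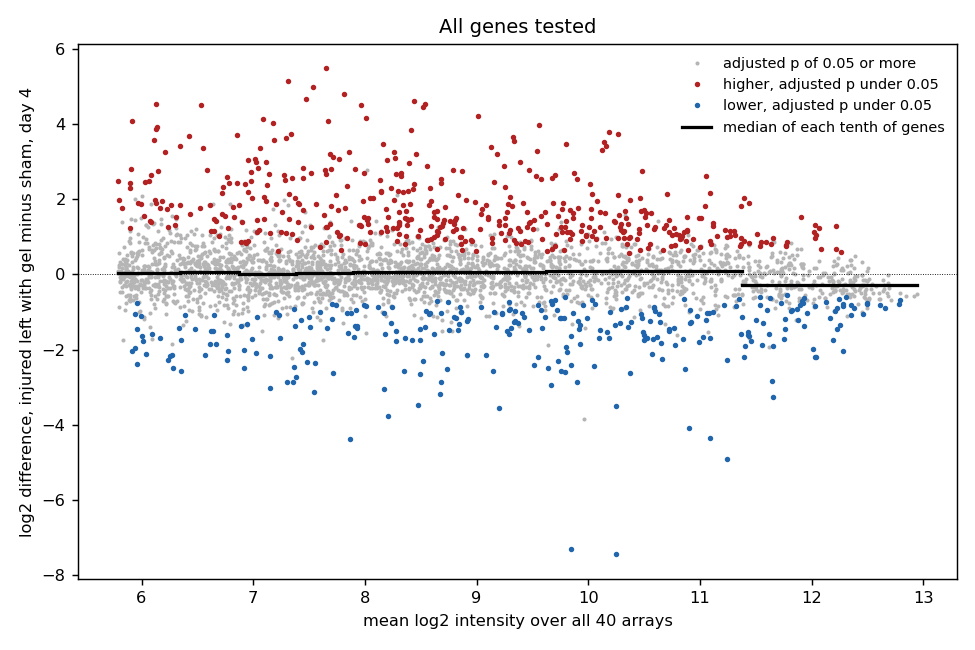
Each point is one of the 3546 genes tested, with its mean log2 intensity over all 40 arrays on the x axis and its log2 difference between injured left arteries with gel and sham arteries of day 4 on the y axis. Red points (449) were higher and blue points (287) lower at an adjusted p under 0.05. Black bars give medians of 10 equal groups of genes by mean level, which run from 0.00 to 0.11 except in the brightest one (-0.28).

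Tnn, which encodes tenascin-N, a matrix glycoprotein, had the lowest adjusted p of all named rises. It read 3369, 2779 and 3624 on the gel arrays and 62.3 to 125 (median 98.1) on the sham arrays. All gel values lay far above all sham values, a difference of 34.9-fold (95% interval 15.3 to 79.6, adjusted p = 7.15e-07). In intact arteries it read 53.8 to 131 and in the right arteries 156 to 431, so that the right arteries lay between the other groups. Thbs4, for thrombospondin-4, a matricellular protein, read 1464, 1418 and 868 on the gel arrays and 11.7 to 146 (median 19.5) on the sham arrays. That is 31.8-fold (95% interval 8 to 127, adjusted p = 0.000427), with 4 of the 6 sham arrays at the floor. Thbs4 was also above sham in the right artery (3.67, adjusted p = 0.0149). Esm1, an endothelial-secreted proteoglycan, read 1873, 2575 and 2016 on the gel arrays and 73.4 to 133 (median 84.8) on the sham arrays, which is 23-fold (95% interval 6.16 to 86, adjusted p = 0.000697). The largest falls outside erratic probe sets were those of Bmp4, Omd and Adra1d. Bmp4, a secreted growth factor of the BMP family, read 19.9, 8.1 and 12.6 on the gel arrays and 396 to 746 (median 448) on the sham arrays. Every gel array was below the floor, so that the fall was at least 20.8-fold (adjusted p = 2.4e-05). In the right arteries Bmp4 stayed at 453 to 537, within the sham range. Omd, which encodes osteomodulin, a small leucine-rich proteoglycan, read 309, 447 and 289 on the gel arrays and 6266 to 9000.4 (median 6580.0) on the sham arrays, a fall of 20.3-fold (95% interval 7.35 to 55.9, adjusted p = 9.99e-05). Adra1d, the alpha-1D adrenergic receptor through which noradrenaline contracts large arteries, read 69.0, 30.0 and 18.9 on the gel arrays and 399.8 to 596 (median 496) on the sham arrays, a fall of 13.6-fold (95% interval 7.6 to 24.4, adjusted p = 6.76e-07).

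**Figure D2:**
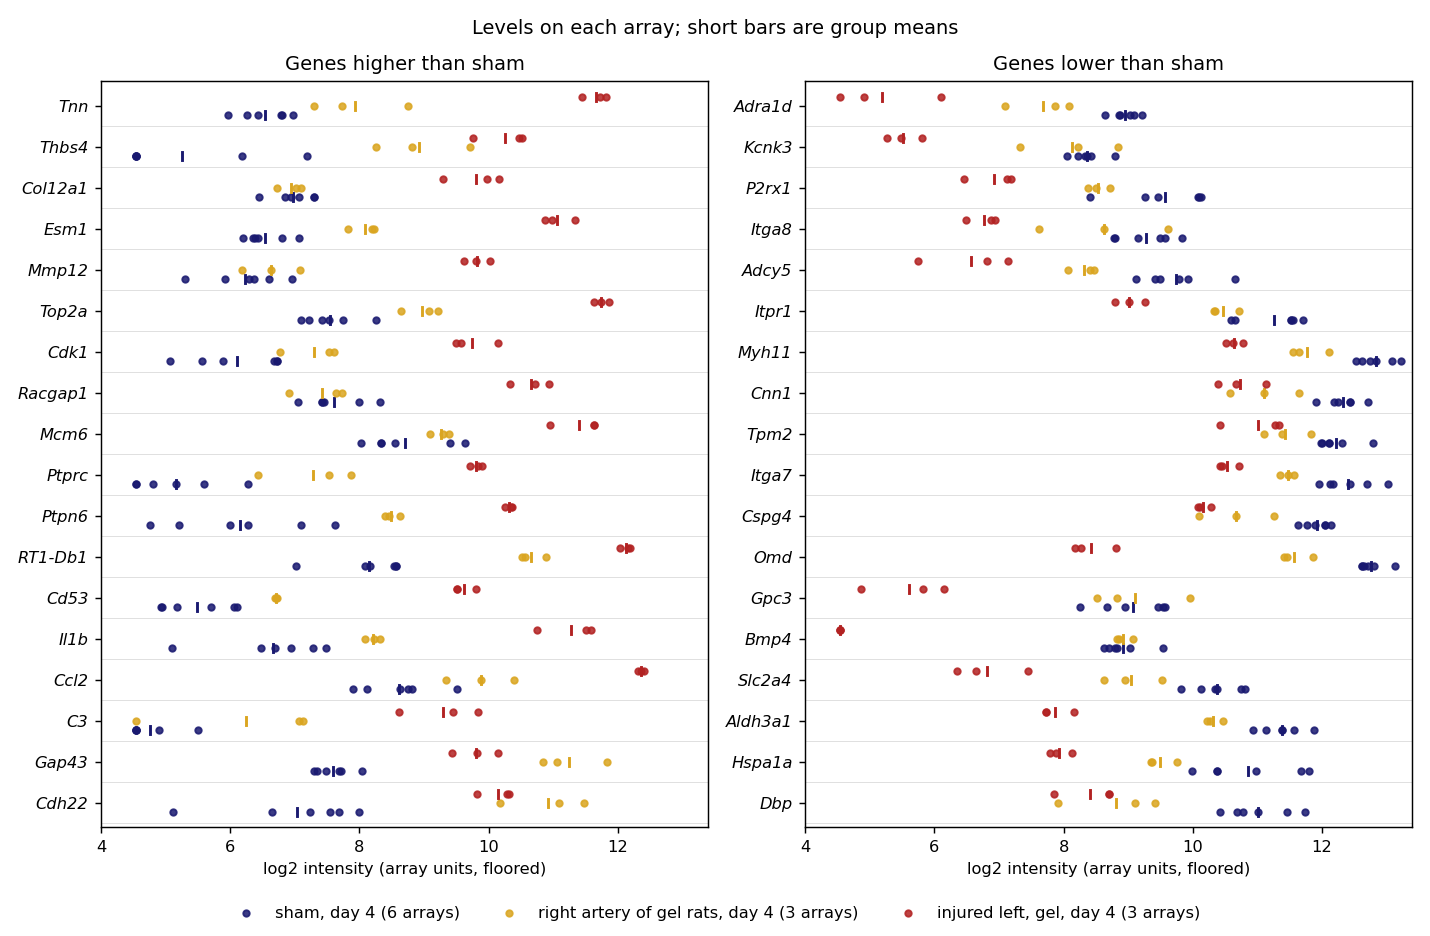
Log2 intensity on each array for 18 genes that were higher (left panel) and 18 that were lower (right panel) in injured left arteries with gel (red, 3 arrays) than in sham arteries (dark, 6 arrays), with the right arteries of the gel rats in yellow (3 arrays). Short bars are group means. Red points lie apart from dark points for every gene shown, and yellow points lie near the dark ones for Col12a1, Racgap1, Bmp4 and Gpc3 and beyond the red ones for Gap43.

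Genes of cell division rose together. Of 16 genes of mitosis and chromosomes tested, 12 rose, and the other 4 did not pass, against 12.7% of all genes. Their median difference was 1.87. Top2a, the topoisomerase that untangles replicated chromosomes, read 3159, 3732 and 3419.8 on the gel arrays and 136 to 304 (median 178) on the sham arrays, which is 18.4-fold (95% interval 7.77 to 43.5, adjusted p = 2.32e-05). Its other probe set differed by 0.13 (adjusted p = 0.895). Cdk1, the kinase that starts mitosis, read 759, 1133 and 724 on the gel arrays and 33.6 to 106 (median 80.9) on the sham arrays, and its partner cyclin Ccnb1 read 1016, 914 and 1069 on the gel arrays and 44.8 to 326 (median 109) on the sham arrays. The rises were 12.4-fold (95% interval 5.4 to 28.4, adjusted p = 7.47e-05) and 9.5-fold (95% interval 4.41 to 20.4, adjusted p = 0.000103). No sham array reached the lowest gel array for any of the 3 genes. Racgap1, needed for the last step of cell division, rose 8.27-fold (95% interval 3.97 to 17.2, adjusted p = 0.000128). Stmn1, which destabilises microtubules, and H2az1, a histone variant, rose by 3.30 and 2.61. Smc4, a condensin subunit, and Cdc25b, a phosphatase that activates Cdk1, had differences of 0.89 and 0.82 that did not pass (adjusted p = 0.121 and 0.0716). Without sham replicate 5, Cdc25b passed (adjusted p = 0.0496).

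Of 16 DNA replication genes, 8 rose, with a median of 1.13. Mcm6 and Mcm5, subunits of the helicase that opens the double strand, rose (2.69, SE 0.62, and 2.68, SE 0.50). Mcm6 read 3164, 1981 and 3175 on the gel arrays and 259 to 793 (median 349) on the sham arrays. Fen1, a nuclease of lagging strand synthesis, Rpa3, a single-strand binding subunit, and Rfc4, a clamp loader subunit, rose too (2.27, 2.63 and 1.73). Pcna, the sliding clamp, was bright in both groups and rose 2.11-fold (95% interval 1.47 to 3.01, adjusted p = 0.00231). Pola2, a primase-associated subunit, and Top1, which relaxes DNA in all cells, had differences of -0.34 and -0.14 (adjusted p = 0.32 and 0.751). Among 18 regulators of the G1 phase 3 rose (16.7%) and 2 fell (11.1%), near the 12.7% and 8.09% of all genes. Ccnd1, the cyclin induced by growth factors, rose 5.51-fold (95% interval 2.48 to 12.2, adjusted p = 0.0019), with gel values of 693, 1185 and 2327 that varied more among themselves than those of the mitotic genes. Without gel replicate 2 the count of G1 genes that rose was 1, and without gel replicate 1 or 3, or sham replicate 5 or 6, none fell.

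The promoters of mitotic genes are known to carry CCAAT boxes, bound by the factor NF-Y. RefSeq promoter sequences (GRCr8) of the 250 bases before the start were found for 11 of the 12 mitotic genes that rose. The motif CCAAT, searched on both strands, was present in 9 of the 11 (81.8%), against 1044 of 2921 promoters of the genes tested (35.7%). It was also present in 5 of the 8 promoters found for the contractile genes that fell (62.5%), so that it is not particular to genes that rose. The motif TTTGAA, the core of the cell cycle element CHR, searched likewise, was present in 4 of the 11 (36.4%), against 9.17% of 2921. A match describes these letters and is not shown to be a bound site. The promoters of the 3 mitotic genes with the values above are shown, with each CCAAT or its reverse complement in capitals, on the strand of the gene. They lie at chr10:84473094-84473343 (minus strand), chr20:19265043-19265292 (plus strand) and chr2:33655226-33655475 (minus strand), and hold 4, 3 and 2 matches.
Top2a: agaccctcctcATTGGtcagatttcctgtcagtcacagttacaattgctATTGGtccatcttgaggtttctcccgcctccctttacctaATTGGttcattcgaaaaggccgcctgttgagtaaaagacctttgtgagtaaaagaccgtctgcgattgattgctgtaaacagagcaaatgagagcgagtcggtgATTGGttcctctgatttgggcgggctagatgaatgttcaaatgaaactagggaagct
Cdk1: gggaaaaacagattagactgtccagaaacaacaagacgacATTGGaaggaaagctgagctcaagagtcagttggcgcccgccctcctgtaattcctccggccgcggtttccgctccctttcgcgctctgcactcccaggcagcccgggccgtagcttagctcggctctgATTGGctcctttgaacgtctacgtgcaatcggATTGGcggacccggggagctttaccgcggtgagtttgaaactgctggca
Ccnb1: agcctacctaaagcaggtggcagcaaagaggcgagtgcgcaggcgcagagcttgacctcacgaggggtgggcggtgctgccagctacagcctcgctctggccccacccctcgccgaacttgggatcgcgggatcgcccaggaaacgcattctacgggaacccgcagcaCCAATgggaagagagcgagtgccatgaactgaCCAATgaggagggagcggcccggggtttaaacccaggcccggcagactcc

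On day 1, 6 of the 16 mitotic and 8 of the 16 replication genes were already above sham (background 1.69% of genes higher), and no gene of either list passed limma's test of a difference between the days (5 mitotic and 1 replication genes had an unadjusted p under 0.05). In the right artery, 2 mitotic genes and 1 replication gene were above sham (background 6.94%). Set directly against the right artery, a comparison chosen after seeing the data, 8 of the 16 mitotic genes and 2 of the 16 replication genes were higher in the left (background 1.64%). Among the mitotic ones were Racgap1 (3.23, adjusted p = 0.00226), Top2a (2.77, 0.0185) and Ccnb1 (2.18, 0.0367). Stmn1 was an exception, at 3.30 above sham in the left and 3.20 in the right artery (adjusted p = 0.000274). Stmn1 is also abundant in growing neurons, and the neuron markers below were raised in the right arteries. Their part in its level was not tested.

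Of 12 matricellular genes 5 rose (41.7%, against 12.7% of all genes), namely Tnn, Thbs4, Esm1, Spp1 and Postn. All 5 calls held with each array left out. Spp1, which encodes osteopontin, an adhesive protein of injured vessels and macrophages, read 5986, 4959.9 and 6657 on the gel arrays and 1374 to 2157 (median 1612) on the sham arrays, which is 3.51-fold (95% interval 1.83 to 6.73, adjusted p = 0.0047). Postn, for periostin, a protein of activated fibroblasts and injured vessels, read 6195, 6062 and 7033 on the gel arrays and 1698 to 2968 (median 2109) on the sham arrays. Its rise was 2.9-fold (95% interval 1.83 to 4.59, adjusted p = 0.000918), and in the right artery it was at the sham level (-0.05, adjusted p = 0.948). Sparc, an abundant collagen-binding protein, differed by -0.51 without passing (adjusted p = 0.213). Of 14 fibrillar collagen and cross-linking genes only Col12a1 rose (7.14%), with a list median of -0.28 beside -0.28 among the brightest genes. Col12a1, a collagen that sits on the surface of fibrils, read 1004, 629.9 and 1147 on the gel arrays and 87.2 to 157 (median 128) on the sham arrays, which is 7.12-fold (95% interval 4 to 12.7, adjusted p = 2.32e-05). It did not differ from sham in the right artery (-0.03) and was 2.86 higher in the left than in the right. Dcn, which encodes the collagen-binding proteoglycan decorin and is among the brightest genes here, differed by -0.50 (adjusted p = 0.408). Of 5 basement membrane genes tested, none passed in limma, and 1 was lower at an unadjusted p under 0.05.

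Proteoglycans and hyaluronan genes moved in both directions, with 3 of 15 higher (20.0%) and 4 lower (26.7%), against 12.7% and 8.09% of all genes. Cd44, the hyaluronan receptor of leukocytes and activated smooth muscle, read 2464, 3622 and 2114 on the gel arrays and 303 to 621 (median 486) on the sham arrays, a rise of 5.84-fold (95% interval 2.69 to 12.7, adjusted p = 0.00104). Vcan, for versican, the large hyaluronan-binding proteoglycan, rose from a sham range of 444 to 584 to 1151, 1251 and 1112, by 1.19 (adjusted p = 0.0173). Without gel replicate 1 its adjusted p was 0.0569, and without gel replicate 2 it was 0.0703. Without gel replicate 2 only 1 gene of the list rose. The 4 genes that fell, Omd, Gpc3, Fmod and Cspg4, kept their call whichever array was left out. Gpc3, a cell surface heparan sulphate proteoglycan, read 29.0, 56.4 and 70.7 on the gel arrays and 306 to 759 (median 603) on the sham arrays, a fall of 11.1-fold (95% interval 3.84 to 32, adjusted p = 0.00106). In the right artery Gpc3 was at the sham level (0.03). Fmod, for fibromodulin, fell by 1.79 and Cspg4, a proteoglycan of mural cells also called NG2, by 1.76. Of 7 integrin genes 2 fell (28.6%). Itga7 and Itga8, counted among the contractile genes too, laminin and matrix receptors of differentiated smooth muscle, fell 3.66-fold (95% interval 2.28 to 5.87, adjusted p = 0.000186) and 5.68-fold (95% interval 2.71 to 11.9, adjusted p = 0.000807).

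In the plasminogen system, which turns plasminogen into the protease plasmin, 4 of 7 genes rose (57.1%) and 1 fell (14.3%). The shares over all genes were 12.7% and 8.09%. Plau, the urokinase activator, read 733, 732 and 1180.4 on the gel arrays and 110.5 to 206 (median 190.0) on the sham arrays, which is 4.87-fold (95% interval 2.78 to 8.56, adjusted p = 0.000146). Its receptor Plaur read 782, 1035 and 727 on the gel arrays and 60.1 to 219 (median 148) on the sham arrays and rose 6.34-fold (95% interval 3.17 to 12.7, adjusted p = 0.000243). Plat, the gene of endogenous tPA, read 1570.5, 1319 and 1134 on the gel arrays and 196 to 576 (median 394) on the sham arrays and rose 3.56-fold (95% interval 2.14 to 5.92, adjusted p = 0.00045). The inhibitor Serpine2, which blocks thrombin and plasminogen activators, fell from 97.1 to 182 to 15.9, 46.2 and 17.9, by 4.31-fold (95% interval 2.35 to 7.89, adjusted p = 0.000597). Of 13 metalloproteinases and inhibitors, 3 rose (Mmp9, Mmp12 and the inhibitor Timp1) and 3 fell (Mmp2, Mmp16 and the inhibitor Timp2), 23.1% each way. Mmp12, the macrophage elastase, read 1038, 789 and 892 on the gel arrays and 39.2 to 124 (median 80.4) on the sham arrays, which is 11.9-fold (95% interval 4.53 to 31.5, adjusted p = 0.000358), and was also above the right artery (3.18, adjusted p = 0.0154). Mmp9, a gelatinase of leukocytes and activated smooth muscle, read 492, 588 and 1304 on the gel arrays and 20.0 to 119 (median 24.2) on the sham arrays, which is 22.6-fold (95% interval 4.94 to 103, adjusted p = 0.0027). Mmp2, a constitutive gelatinase, fell by 0.95 (adjusted p = 0.0183), with adjusted p = 0.0563 without gel replicate 1 and 0.0948 without gel replicate 2. The count of falling genes in this list was then 0 and 1. Timp1 passed on its brightest probe set in only 2 of the 9 fits with an array left out, while its other probe set rose by 1.63 (adjusted p = 0.00148). Timp2 passed in 3 of those fits, and Mmp16 was lost without gel replicate 1 (0.0624). Tfpi, the inhibitor of the tissue factor pathway of clotting, read 523, 616 and 474 on the gel arrays and 5.1 to 84.7 (median 54.6) on the sham arrays, which is 10.2-fold (95% interval 5.58 to 18.6, adjusted p = 4.6e-06). F3, tissue factor itself, fell 3.64-fold (95% interval 1.7 to 7.79, adjusted p = 0.0128), and without gel replicate 3 its adjusted p was 0.073.

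Of 12 macrophage markers 7 rose (58.3%, against 12.7% of all genes) and the others did not pass, with a median of 1.67. Their summed intensity was 25283 to 31474 on the gel arrays and 12525 to 16291 on the sham arrays. Aif1, a calcium-binding protein of macrophages, read 2026, 1822 and 1414 on the gel arrays and 39.8 to 308 (median 113) on the sham arrays, which is 14.2-fold (95% interval 5.33 to 38, adjusted p = 0.000207). Ptpn6, a phosphatase of blood cells, read 1306, 1315 and 1216 on the gel arrays and 27.0 to 197 (median 70.6) on the sham arrays, and Fcgr2b, an inhibitory receptor for antibodies, read 1403, 1399.8 and 1209.7 on the gel arrays and 86.0 to 222 (median 116) on the sham arrays. They rose 17.9-fold (95% interval 5.73 to 56, adjusted p = 0.000386) and 11.1-fold (95% interval 4.23 to 29.1, adjusted p = 0.000438). Lgals3, for galectin-3, rose 6.69-fold (95% interval 3.69 to 12.1, adjusted p = 4.3e-05). Ctsd, a lysosomal protease found in most cells, did not pass (0.23, adjusted p = 0.54). Of 16 lymphocyte and pan-leukocyte markers 8 rose, with sums of 7558 to 9145 against 2267 to 3008. Ptprc, the CD45 antigen of all leukocytes, read 911, 951 and 838 on the gel arrays and 1.4 to 77.6 (median 31.8) on the sham arrays, which is 25.2-fold (95% interval 6.02 to 106, adjusted p = 0.00114). Cd53, a leukocyte tetraspanin, read 730.3, 730.4 and 897 on the gel arrays and 30.5 to 69.1 (median 44.1) on the sham arrays, and Coro1a, a leukocyte actin-binding protein, read 1008, 1096 and 1456 on the gel arrays and 11.4 to 180.1 (median 42.0) on the sham arrays. Cd3g and Cd8a, of the T cell receptor complex and of cytotoxic T cells, rose 6.89-fold (95% interval 2.81 to 16.9, adjusted p = 0.0018) and 15-fold (95% interval 4.79 to 46.9, adjusted p = 0.000715). Lck, the kinase of T cells, had a difference of 0.74 (adjusted p = 0.0583), with adjusted p = 0.0221 without gel replicate 2 and 0.042 without sham replicate 1. Of 4 neutrophil markers none passed in limma, and none had an unadjusted p under 0.05. With only the groups compared, S100a8 and S100a9 passed (adjusted p = 0.00418 and 0.00499), and S100a8 did so with array weights (0.0251) and the replicate block (0.049). S100a8 and S100a9, the calgranulins of neutrophils, read 172, 124 and 167 and 109.7, 159 and 185 on the gel arrays, against 6.0 to 72.2 and 14.1 to 68.6 on the sham arrays. The 5 mast cell genes likewise gave no call and no unadjusted p under 0.05, with sums of 2359 to 3174 against 1722 to 4333.

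Macrophages, dendritic cells and B cells show peptides to helper T cells with MHC class II. Genes of this antigen presentation rose in 5 of 9 cases (55.6%, against 12.7% of all genes). All 5 calls held with each array left out. RT1-Db1, a class II beta chain, read 4665, 4581 and 4198 on the gel arrays and 129 to 380.1 (median 328) on the sham arrays, which is 15.7-fold (95% interval 6.14 to 40.2, adjusted p = 0.000105). RT1-Ba, an alpha chain, read 3344, 3516 and 3258 on the gel arrays and 372 to 515 (median 426) on the sham arrays, which is 7.88-fold (95% interval 4.27 to 14.5, adjusted p = 2.34e-05). Their ranges do not come near each other. RT1-DMb, part of the peptide loader, and Ctss, the protease that frees the groove, rose by 2.62 and 1.89. Cd74, the invariant chain, rose by 3.47 (adjusted p = 0.0117), but its brightest probe set is one of 55 that read near 0 on some arrays and brightly on others, here called erratic. Its 3 other probe sets differed by 2.69, 4.25 and 4.36. Probe sets of one class II gene did not all move alike: those of RT1-Ba differed by 2.98, 0.71 and 3.01. Less bright probe sets of class II genes that were not called rose by 3.21, 2.63 and 1.92 (adjusted p = 6.76e-07, 0.0105 and 0.0122). A further one differed by 1.17 without passing (0.391). With the mean of the probe sets of a gene, 7 of the 9 genes rose. The class II genes resemble each other in sequence, and their probes may share signal. Of 14 class I and interferon genes 5 rose (35.7%) and 1 fell (7.14%, beside 8.09% of all genes). Without gel replicate 2 the count of rises was 2. Psmb8, an immunoproteasome subunit, kept its rise whichever array was left out (2.55-fold (95% interval 1.66 to 3.9, adjusted p = 0.0015)). B2m, the light chain of class I molecules and one of the brightest genes, fell by 0.79 (adjusted p = 0.0261), and without gel replicate 1 its adjusted p was 0.109, without gel replicate 2 0.0854 and without sham replicate 2 0.0548. Under quantile normalization the list held no fall.

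Class II promoters are known to carry a CCAAT box of their own, the Y box. The 250 bases before the start of both genes above, at chr20:4576807-4577056 (plus strand) and chr20:4560163-4560412 (minus strand), held 1 and 2 matches to CCAAT or its reverse complement, in capitals. RefSeq promoters were found for 4 of the 5 class II genes that rose, and 3 of the 4 held the motif (75%). With so few promoters the share cannot be set apart from the 35.7% of all genes tested.
RT1-Ba: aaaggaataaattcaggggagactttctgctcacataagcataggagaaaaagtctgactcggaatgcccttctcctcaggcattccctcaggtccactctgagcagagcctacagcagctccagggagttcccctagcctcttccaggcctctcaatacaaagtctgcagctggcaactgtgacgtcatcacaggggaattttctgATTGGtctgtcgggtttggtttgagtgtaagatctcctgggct
RT1-Db1: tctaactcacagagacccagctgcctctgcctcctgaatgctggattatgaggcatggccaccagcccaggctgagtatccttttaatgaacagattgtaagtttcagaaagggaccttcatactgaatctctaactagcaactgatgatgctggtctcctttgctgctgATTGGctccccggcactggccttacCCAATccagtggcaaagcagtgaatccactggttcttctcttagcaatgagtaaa

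Of 13 chemokine and receptor genes 4 rose (30.8%, against 12.7% of all genes), and without gel replicate 2 the count was 2. Ccl2, the chemokine that draws monocytes, read 5410.1, 5249 and 5066 on the gel arrays and 240.1 to 732 (median 412) on the sham arrays, which is 13.3-fold (95% interval 5.37 to 33, adjusted p = 0.000132). Cxcl13, which draws B cells, read 1997, 1073 and 1895 on the gel arrays and 15.3 to 129 (median 67.8) on the sham arrays, which is 27.7-fold (95% interval 9.46 to 81.3, adjusted p = 6.03e-05). Il1b and Il18, cytokines released through the inflammasome, read 1714, 3067 and 2912 on the gel arrays and 34.4 to 178 (median 113) on the sham arrays and 2808, 2823 and 2253 on the gel arrays and 83.9 to 204 (median 109) on the sham arrays. They rose 24.6-fold (95% interval 8.07 to 74.8, adjusted p = 0.000128) and 22-fold (95% interval 8.8 to 54.9, adjusted p = 2.32e-05). Of 20 cytokine and receptor genes 5 rose (25.0%) and 1 fell (5.0%, against 8.09% of all genes). Without gel replicate 2 the count of rises was 3. Il2rb, a receptor chain of T and natural killer cells, read 582, 628 and 497 on the gel arrays and 85.6 to 349.8 (median 153) on the sham arrays. Tnfrsf1a, the widespread TNF receptor, did not pass (0.22, adjusted p = 0.523). Of 10 complement genes 4 rose and 2 fell. C3, the central component, read 697, 392 and 912 on the gel arrays and 11.5 to 45.2 (median 20.2) on the sham arrays, which is 23.2-fold (95% interval 7.25 to 74.4, adjusted p = 0.000207). C5ar1, the receptor for the fragment C5a, rose 3.69-fold (95% interval 2 to 6.8, adjusted p = 0.00194). The 2 falls, Cd59b and Masp1, both had adjusted p above 0.05 without gel replicate 1 (0.0752 and 0.127), gel replicate 2 (0.0988 and 0.184) or sham replicate 6 (0.0543 and 0.0647). Cd59b was lost without gel replicate 3 (0.106) or sham replicate 2 (0.0698) too, and Masp1 without sham replicate 1 (0.0524) or 5 (0.0698). Among 6 endothelial adhesion molecules Vcam1, which binds leukocytes, rose from 582 to 1057 to 4100.5, 3521 and 3064, by 4.38-fold (95% interval 2.6 to 7.37, adjusted p = 0.000137). Icam1, its relative, had a difference of 0.45 (adjusted p = 0.291).

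Genes of the contractile smooth muscle list were lower. Of 20 genes tested 10 fell and the other 10 did not pass, against 8.09% of all genes, with a median of -1.01. The list is wider than the contractile proteins, and Itga7, Itga8, Gucy1a1 and Gucy1b1 were among the 10 that fell. Myh11, the smooth muscle myosin heavy chain, read 1569, 1752 and 1456 on the gel arrays and 5903 to 9544 (median 7092) on the sham arrays, a fall of 4.61-fold (95% interval 2.7 to 7.88, adjusted p = 0.000132). Cnn1, for calponin, which damps myosin, read 1630.5, 2242 and 1338 on the gel arrays and 3823 to 6718 (median 5201) on the sham arrays, and Tpm2, a tropomyosin, read 2469.6, 2572 and 1369 on the gel arrays and 4044 to 7117 (median 4423) on the sham arrays. They fell 3.01-fold (95% interval 1.91 to 4.75, adjusted p = 0.000585) and 2.32-fold (95% interval 1.61 to 3.35, adjusted p = 0.00102). No gel array reached the lowest sham array for any of these genes. Gucy1b1, a subunit of the nitric oxide receptor, fell 2.86-fold (95% interval 1.9 to 4.32, adjusted p = 0.000359). Acta2, smooth muscle actin, is one of the brightest genes and differed by -0.49 without passing (adjusted p = 0.106), with adjusted p = 0.0455 without sham replicate 1. Under quantile normalization its difference was 0.05. The other probe sets of Acta2, which are less bright, differed by -1.15 and -2.20 and passed. For Myh11 other probe sets gave 0.43 and -5.18. RefSeq promoters were found for 8 of the 10 genes that fell. The CArG box, the site of serum response factor, searched in the 250 bases before the start, was in 0 of these 8 and in 1.64% of the promoters of genes tested.

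Of 23 genes of calcium entry, pumps and stores 5 fell (21.7%) and 1 rose (4.35%), against 8.09% and 12.7% of all genes. Itpr1, the receptor that releases stored calcium, read 613, 442 and 514 on the gel arrays and 1535 to 3352 (median 2924) on the sham arrays, a fall of 4.71-fold (95% interval 2.35 to 9.45, adjusted p = 0.00126). Cacnb2 and Cacna2d1, subunits of voltage-gated calcium channels, fell 3-fold (95% interval 2.02 to 4.47, adjusted p = 0.00017) and 3-fold (95% interval 1.86 to 4.85, adjusted p = 0.001), and Atp2a3, a pump of the store, fell by 1.92. Atp2a2, the main pump of the store, is among the brightest genes and differed by -0.48 (adjusted p = 0.199), with 0.02 under quantile normalization. The 1 rise, in the plasma membrane pump Atp2b1 (1.13), had an adjusted p of 0.13 without gel replicate 1 and 0.115 without gel replicate 2. Of 20 potassium and sodium channel genes 3 fell (15.0%) and 1 rose (5.0%). Kcnk3, a background potassium channel, read 56.0, 38.3 and 44.5 on the gel arrays and 265 to 446 (median 326) on the sham arrays, a fall of 7.21-fold (95% interval 3.51 to 14.8, adjusted p = 0.000186), and was -2.61 below the right artery (the left minus right difference, adjusted p = 0.00775). The 1 rise was that of Scn7a, described with the nerve markers. Without gel replicate 3 the falls of this list numbered 1. Of 38 vasoactive receptors, ligands and enzymes 8 fell (21.1%) and 3 rose (7.89%). P2rx1, the ATP-gated channel of sympathetic cotransmission, read 146, 88.2 and 139.8 on the gel arrays and 339 to 1113 (median 898) on the sham arrays, a fall of 6.26-fold (95% interval 3.05 to 12.8, adjusted p = 0.000359). Tbxa2r, the thromboxane receptor, Ptgis, prostacyclin synthase, and Ptgs1, cyclooxygenase-1, fell by 1.69, 1.45 and 1.30. Npr1, the receptor of natriuretic peptides, fell by 1.17. Outside the list, Adcy5, an adenylyl cyclase that answers to hormone receptors, read 113, 53.4 and 141 on the gel arrays and 558 to 1602 (median 803) on the sham arrays and fell 8.98-fold (95% interval 5.14 to 15.7, adjusted p = 4.02e-06). The rises were Agtr1a, the angiotensin II receptor, Adora2b, an adenosine receptor, and P2rx4, an ATP-gated channel also found in macrophages. Agtr1a read 1631, 1489.8 and 2186 on the gel arrays and 402 to 736 (median 501) on the sham arrays, which is 3.39-fold (95% interval 1.85 to 6.23, adjusted p = 0.00328). Adora2b read 200.4, 200.4 and 319.6 on the gel arrays and 10.9 to 65.5 (median 53.1) on the sham arrays, which is 5.51-fold (95% interval 3.14 to 9.68, adjusted p = 7.47e-05).

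Of 22 TGF-beta and BMP genes 7 fell (31.8%) and 1 rose (4.55%), against 8.09% and 12.7% of all genes, with a median of -0.38. Beside Bmp4, Tgfb3, a TGF-beta ligand, read 2751, 3438 and 2374 on the gel arrays and 4918 to 8589.6 (median 7889.6) on the sham arrays and fell 2.54-fold (95% interval 1.74 to 3.7, adjusted p = 0.000468). Bmpr1a, a receptor for BMP ligands, Bmp3, and Id2, a transcriptional target of BMP signals, fell by 1.66, 1.41 and 1.87. Acvr2a, a receptor for activins, rose by 0.87. Among 27 genes of the PDGF, FGF, EGF and VEGF pathways 3 fell (11.1%) and 2 rose (7.41%), near the shares over all genes. Ntf3, a neurotrophin grouped with them, read 1972, 2086 and 1073 on the gel arrays and 4652 to 8538 (median 7012) on the sham arrays, a fall of 3.98-fold (95% interval 2.46 to 6.46, adjusted p = 0.000132). Pdgfra, a PDGF receptor of fibroblasts, read 3138, 1725 and 4772 on the gel arrays and 693 to 1284 (median 865) on the sham arrays, with a difference of 1.72 and an adjusted p of 0.0148 that was 0.0598 without gel replicate 1 and 0.118 without gel replicate 3. The list then held 1 and 0 rises. Of 13 IGF pathway genes 1 rose (7.69%), Igf2r (0.75), which clears IGF-II. Its adjusted p was 0.0915, 0.0698 and 0.0918 without gel replicate 1, 2 and 3, and 0.0555 without sham replicate 2. Igf1 itself, on an erratic probe set, differed by 1.41 (adjusted p = 0.161), and 3 of its 4 other probe sets passed at 1.87, 1.65 and 1.43.

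Among genes of metabolism, sterol synthesis rose in 5 of 12 cases (41.7%), with a median of 0.94. Idi1, an early isomerase of the pathway, and Sqle, squalene epoxidase, rose 4.69-fold (95% interval 2.54 to 8.65, adjusted p = 0.000404) and 2.64-fold (95% interval 1.72 to 4.03, adjusted p = 0.00102). The list was as high in the right artery, where 7 of the 12 genes were above sham with a median of 0.94. Sqle read 1149 to 2687 in the right arteries against 847, 1016 and 945 in the left. Of 23 genes of glycolysis and glucose uptake 3 fell (13.0%) and 1 rose (4.35%), against 8.09% and 12.7% of all genes. Slc2a4, the insulin-responsive glucose transporter GLUT4, read 175, 81.6 and 99.6 on the gel arrays and 904 to 1800.0 (median 1309.7) on the sham arrays, a fall of 11.8-fold (95% interval 5.57 to 24.8, adjusted p = 2.8e-05). Pfkm, the muscle form of phosphofructokinase, fell 3.26-fold (95% interval 2.08 to 5.1, adjusted p = 0.000266), and was -1.90 in the left minus the right artery. Slc16a1, a lactate and pyruvate transporter, rose 6.33-fold (95% interval 3.28 to 12.2, adjusted p = 0.000146). Of 25 fatty acid oxidation genes 4 rose (16.0%) and 1 fell (4.0%), near the shares over all genes. Among the rises were Acsl4, an acyl-CoA synthetase, and Ucp2, an uncoupling protein of leukocytes (1.66 and 1.33). The fall, that of Hadha (-0.66), kept an adjusted p under 0.05 in 1 of the 9 fits with an array left out, that without sham replicate 3, and stood at 0.324 without gel replicate 1. Its groups overlapped. Of 29 genes of oxidative phosphorylation 2 rose (6.90%), fewer than the share over all genes, and without any one of the gel arrays neither passed.

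Of 32 genes of heme, iron and antioxidant defence 7 rose (21.9%) and 3 fell (9.38%), against 12.7% and 8.09% of all genes. Hmox1, heme oxygenase, read 3198, 2530.2 and 3762 on the gel arrays and 172 to 426 (median 218) on the sham arrays, a rise of 12.6-fold (95% interval 5.01 to 31.6, adjusted p = 0.000181) on an erratic probe set. Sod2, the mitochondrial superoxide dismutase, rose 2.77-fold (95% interval 1.62 to 4.73, adjusted p = 0.0053). Gstm2, a glutathione transferase, fell 2.87-fold (95% interval 1.68 to 4.9, adjusted p = 0.00406), and outside the list Aldh3a1 and Sult1a1, enzymes of detoxification, fell 11.3-fold (95% interval 4.38 to 29.4, adjusted p = 0.00036) and 9.61-fold (95% interval 4 to 23.1, adjusted p = 0.000324). The 7 rises became 4 without gel replicate 1 and 3 without gel replicate 3, and the 3 falls became 1 without gel replicate 1. Of 30 immediate early and heat shock genes 5 rose (16.7%) and 7 fell (23.3%). Egr2, a zinc finger factor, read 1594, 1652 and 2175 on the gel arrays and 85.9 to 263 (median 193) on the sham arrays, which is 10.4-fold (95% interval 4.37 to 24.9, adjusted p = 0.000213). Klf4, a factor that represses contractile genes, rose 2.34-fold (95% interval 1.51 to 3.63, adjusted p = 0.00463), and by as much in the right artery (1.22, adjusted p = 0.0109). Hspa1a, the inducible heat shock protein 70, read 235, 220.4 and 280.5 on the gel arrays and 1010.1 to 3545 (median 1671) on the sham arrays, a fall of 7.62-fold (95% interval 3.7 to 15.7, adjusted p = 0.000146). Cryab, a small heat shock protein of muscle, fell 3.34-fold (95% interval 2.24 to 4.98, adjusted p = 7.66e-05), and Dusp1, a phosphatase of MAP kinases, fell by 1.26. The 7 falls became 4 without gel replicate 3. Of 9 circadian genes 2 rose and 2 fell (22.2% each). Dbp and Nr1d1, output genes of the clock that peak in the day, fell 6.06-fold (95% interval 2.87 to 12.8, adjusted p = 0.000612) and 4.38-fold (95% interval 2.58 to 7.45, adjusted p = 0.000162). Bmal1, which peaks at the opposite phase, rose by 1.34, with adjusted p = 0.11 without gel replicate 1 and 0.101 without gel replicate 3. All 3 also passed in the right artery (-2.21, -1.36 and 1.77), and the hour at which arteries were taken is not given in the sources used here.

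Of 37 ribosomal protein genes 3 fell (8.11%) with a median of -0.41, beside the -0.28 of all genes of the brightest 10%. Without gel replicate 1 none of the 37 passed in limma, and without sham replicate 4 the count was 5. Of 21 proteasome genes 2 rose (9.52%) and of 20 secretory pathway chaperones 3 rose (15.0%), near the 12.7% of all genes. Serp1, a protein of the stressed endoplasmic reticulum, read 1474, 1690.3 and 1783 on the gel arrays and 85.6 to 604 (median 320.4) on the sham arrays, which is 6.75-fold (95% interval 3.01 to 15.2, adjusted p = 0.000745), and Hspa5, its main chaperone, rose 2.17-fold (95% interval 1.49 to 3.17, adjusted p = 0.00272). Of 25 genes of the cytoskeleton of motile cells 7 rose (28.0%) and 4 fell (16.0%). Among the rises were Ezr, which ties actin to the membrane (1.63), Capg, an actin-capping protein of macrophages (1.49), and Nes, an intermediate filament of dividing and immature cells (1.43). Without gel replicate 3 the rises of this list numbered 4. Its falls numbered 1 without gel replicate 1 or 2, and 2 without sham replicate 2 or 3.

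**Figure D3:**
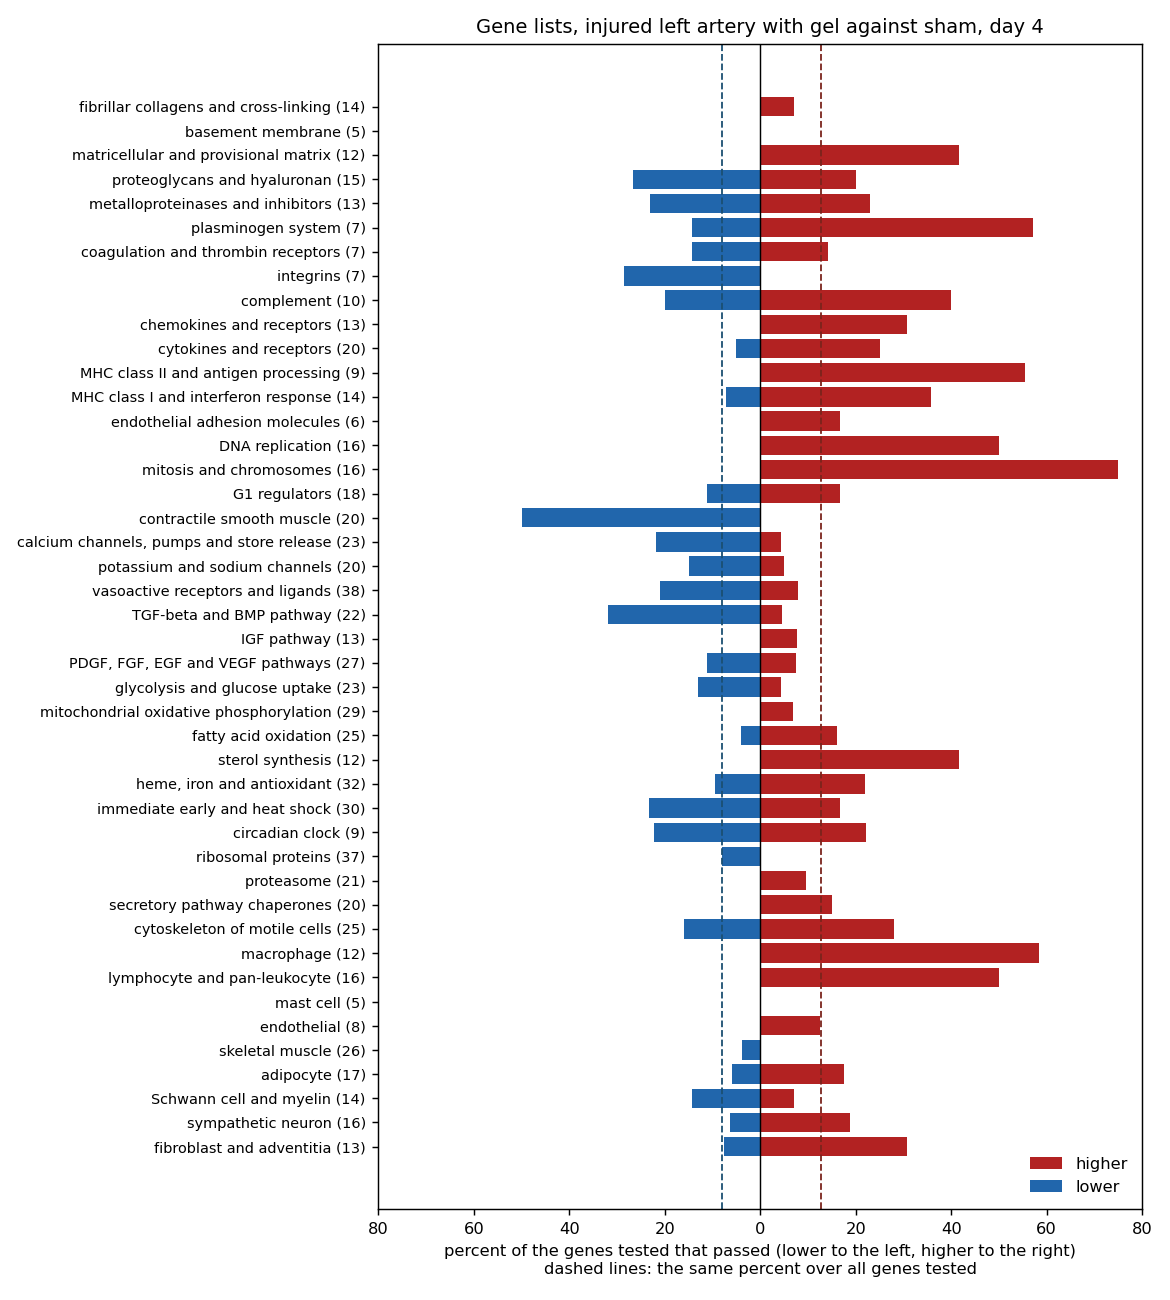
Percent of the tested genes of each list (number in parentheses) that were higher (red, to the right) or lower (blue, to the left) in injured left arteries with gel than in sham arteries of day 4. Lists with fewer than 5 genes tested are left out. Dashed lines mark all genes tested, 12.7% higher and 8.09% lower. The longest bar to each side is that of mitosis and chromosomes (12 of 16 higher) and that of contractile smooth muscle (10 of 20 lower).

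The common carotid runs beside the vagus and sympathetic nerves, in fat and close to neck muscle. Of 16 sympathetic neuron markers 3 rose (18.8%) and 1 fell (6.25%), near the 12.7% and 8.09% of all genes, with sums of 4077 to 9151 against 2672 to 3778 on the sham arrays. In the right arteries of the same rats 11 of the 16 were above sham, with sums of 18349 to 40944. Gap43, of growing axons, read 692, 1128 and 904 on the gel arrays and 157 to 264 (median 192) on the sham arrays and 1831 to 3629.5 in the right arteries. It rose 4.61-fold (95% interval 2.23 to 9.55, adjusted p = 0.00225). Th, the enzyme that starts noradrenaline synthesis, had a difference of 0.54 in the left (adjusted p = 0.505) and 3.05 in the right artery. Scn7a, a sodium channel of nerve and glia, read 1377, 3169 and 414 on the gel arrays and 5.5 to 48.8 (median 20.8) on the sham arrays and 4692 to 5292 in the right arteries. Its difference was 5.48 (adjusted p = 0.00916), and without gel replicate 2 the adjusted p was 0.0676. Cdh22, a cadherin of neural tissue, read 1279.9, 1244 and 902 on the gel arrays and 34.8 to 254 (median 168) on the sham arrays and 1157 to 2860.0 in the right arteries, a rise of 8.6-fold (95% interval 3.49 to 21.2, adjusted p = 0.000683). Without gel replicate 2, 1 neuron marker rose. The part of nerve tissue in these values was not tested. Of 17 adipocyte markers 3 rose (17.6%) and 1 fell (5.88%), with sums of 16442 to 21800 against 9740 to 12814. Cfd, the protease adipsin, read 3186, 2686 and 3633 on the gel arrays and 382 to 718 (median 613) on the sham arrays, which is 5.32-fold (95% interval 3.15 to 8.99, adjusted p = 4.3e-05), and Lpl, lipoprotein lipase of fat and macrophages, rose 11.5-fold (95% interval 3.87 to 33.9, adjusted p = 0.00116). In the right artery they differed from sham by 2.25 and 3.17, and 7 of the 17 passed. Of 26 skeletal muscle markers 1 fell (3.85%), with sums of 5567 to 7726 against 7637 to 11150, and without gel replicate 1 that call was lost. Of 14 Schwann cell markers 1 rose (7.14%) and 2 fell (14.3%), with sums of 9402 to 10812 against 13487 to 19224.

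Of 13 fibroblast and adventitia genes 4 rose (30.8%) and 1 fell (7.69%), against 12.7% and 8.09% of all genes. Thy1, a surface protein of adventitial fibroblasts, T cells and neurons, read 6608, 6033 and 6706 on the gel arrays and 402 to 1763 (median 531) on the sham arrays, which is 10.7-fold (95% interval 3.81 to 30.2, adjusted p = 0.001), and was 2.90 above sham in the right artery. Without gel replicate 1 or 3 the count of rises was 2. Among 8 endothelial genes 1 rose (12.5%, beside 12.7% of all genes), Kdr, the VEGF receptor. Kdr read 235, 214 and 1442 on the gel arrays and 38.3 to 152 (median 81.3) on the sham arrays. The highest value came from gel replicate 3, and without it the adjusted p went from 0.00243 to 0.0801. In the right artery Kdr differed from sham by 2.55. Flt1, Selp and Thbd, other endothelial genes, did not pass (0.57, 0.53 and 0.12). Ace, named here after its value was seen, was lower at an unadjusted p of 0.0217 (-0.89, adjusted p = 0.0912). Under quantile normalization, median scaling, array weights or without 4 tPA arrays, 1 gene of the list was lower. The summed endothelial signal was 2303 to 4120 on the gel arrays and 1966 to 2971 on the sham arrays. Of 4 erythrocyte genes none passed in limma and none had an unadjusted p under 0.05.

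The day 4 difference was tested against the difference on day 1, between 3 gel and 4 sham arrays taken 1 day after surgery. On day 1, 60 genes were higher (1.69%) and 58 lower (1.64%) than sham. The difference was more positive on day 4 in 68 genes (1.92%) and more negative in 24 (0.677%). Over probe sets the counts were 95 (1.63%) and 46 (0.789%), together 2.42%, and over genes 2.59%. Of the 9 class II genes 4 passed. RT1-Db1 was at -2.68 on day 1 (adjusted p = 0.0309) and 3.97 on day 4, a change of 6.66 (SE 0.98, adjusted p = 0.000196). RT1-Ba went from -1.20 to 2.98, a change of 4.17 (adjusted p = 0.000276). Those of RT1-DMb and Cd74 were 3.38 and 5.42. The summed class II signal of the sham arrays differed between the days, at 13853 to 15690 on day 1 and 5209 to 10080 on day 4. On the gel arrays it was 6588 to 12444 and 26001 to 28478, so that these tests rest on the sham arrays as well. Of the 16 lymphocyte and pan-leukocyte genes 2 passed, among them Cd3g with a change of 4.95 (adjusted p = 0.00193), while Cd8a and Lck did not (adjusted p = 0.577 and 0.109). The summed signal of this list on the sham arrays differed too, at 4184 to 5221 on day 1 and 2267 to 3008 on day 4. Il2rb changed by 4.20 (adjusted p = 0.000867). Changes that passed were also seen for C3 (6.36), Cxcl13 (4.97), the adipocyte protease Cfd (2.63) and Thy1 (4.69). Macrophage markers had a median of 0.88 on day 1 and 1.67 on day 4, and no gene of that list passed the test between days in limma (5 had an unadjusted p under 0.05).

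Of the matrix and protease genes, Tnn (4.66, adjusted p = 0.00159), Tfpi (3.37), Plau (2.33), Mmp12 (3.73) and Thbs4 (5.39) were raised more on day 4. For Thbs4 the sham arrays differed between the days, at 151.6 to 497.9 on day 1, so that its test rests on them as well. Efemp1, for fibulin-3, a protein of elastic fibres, was below sham on day 1 (-2.28, adjusted p = 0.00866) and above it on day 4 (1.5), a change of 3.78 (adjusted p = 0.00146). On day 4 alone its adjusted p was 0.0531, 0.0654 and 0.0825 without gel replicate 1, 2 and 3. Other genes in this direction were Scn7a (9.64), Cdh22 (5.28), Apod, which encodes apolipoprotein D (5.26), Egr2 (3.91), Kdr (3.50) and Bmal1 (2.70). In the other direction, 1 of the 20 contractile genes passed, Itga7, while Myh11, Cnn1 and Tpm2 did not (adjusted p = 0.171, 0.0954 and 0.0986). Outside that list, Adra1d was at -0.76 on day 1 and -3.77 on day 4, a change of -3.0 (adjusted p = 0.00393). Adcy5, Itga7 and the proteoglycan gene Cspg4 changed by -2.82, -2.12 and -2.04. Hspa1a (-3.81), Cryab (-2.06) and Nr1d1 (-2.40) did so too. By contrast Spp1 (2.03), Cd44 (2.25), Il1b (4.08), Ccl2 (2.42) and Vcam1 (1.47) were already above sham on day 1, and their difference did not pass the test between days. Cxcl2, a chemokine for neutrophils, was 5.51 above sham on day 1 (adjusted p = 0.00493) and 3.57 on day 4, where its adjusted p of 0.0115 became 0.0531 without gel replicate 2. The change of -1.93 did not pass (adjusted p = 0.681).

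The day 1 arrays limit this test. Without gel day 1 replicate 2 the count of probe sets fell from 141 to 72. The calls of RT1-DMb (adjusted p = 0.0822), Cd74 (0.159), Thy1 (0.0505), Plau (0.0597), Mmp12 (0.128), Thbs4 (0.107), Egr2 (0.0543), Kdr (0.0666), Bmal1 (0.0505) and Cspg4 (0.0549) were then lost. Those of Thbs4, Mmp12 and Cd74 were lost without several other arrays as well. Of the 16 arrays left out in turn, 4, 6 and 10 left them under 0.05. Plau was lost without gel day 4 replicate 3 (0.0847) and gel day 1 replicate 1 (0.0564) too, Kdr without gel day 4 replicate 3 (0.118) and sham day 1 replicate 4 (0.0511), and Nr1d1 without gel day 4 replicate 2 (0.0547). Gel day 1 replicates 1 and 3 were closer to each other (SD of log2 differences 0.45) than to replicate 2 (0.973 and 0.981), and whether they came from separate pools was not tested. The summed skeletal muscle signal was 33926 to 64125 in the gel arrays of day 1, against 6267 to 7847 in the sham arrays of that day. Its part in the test was not tested.

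**Figure D4:**
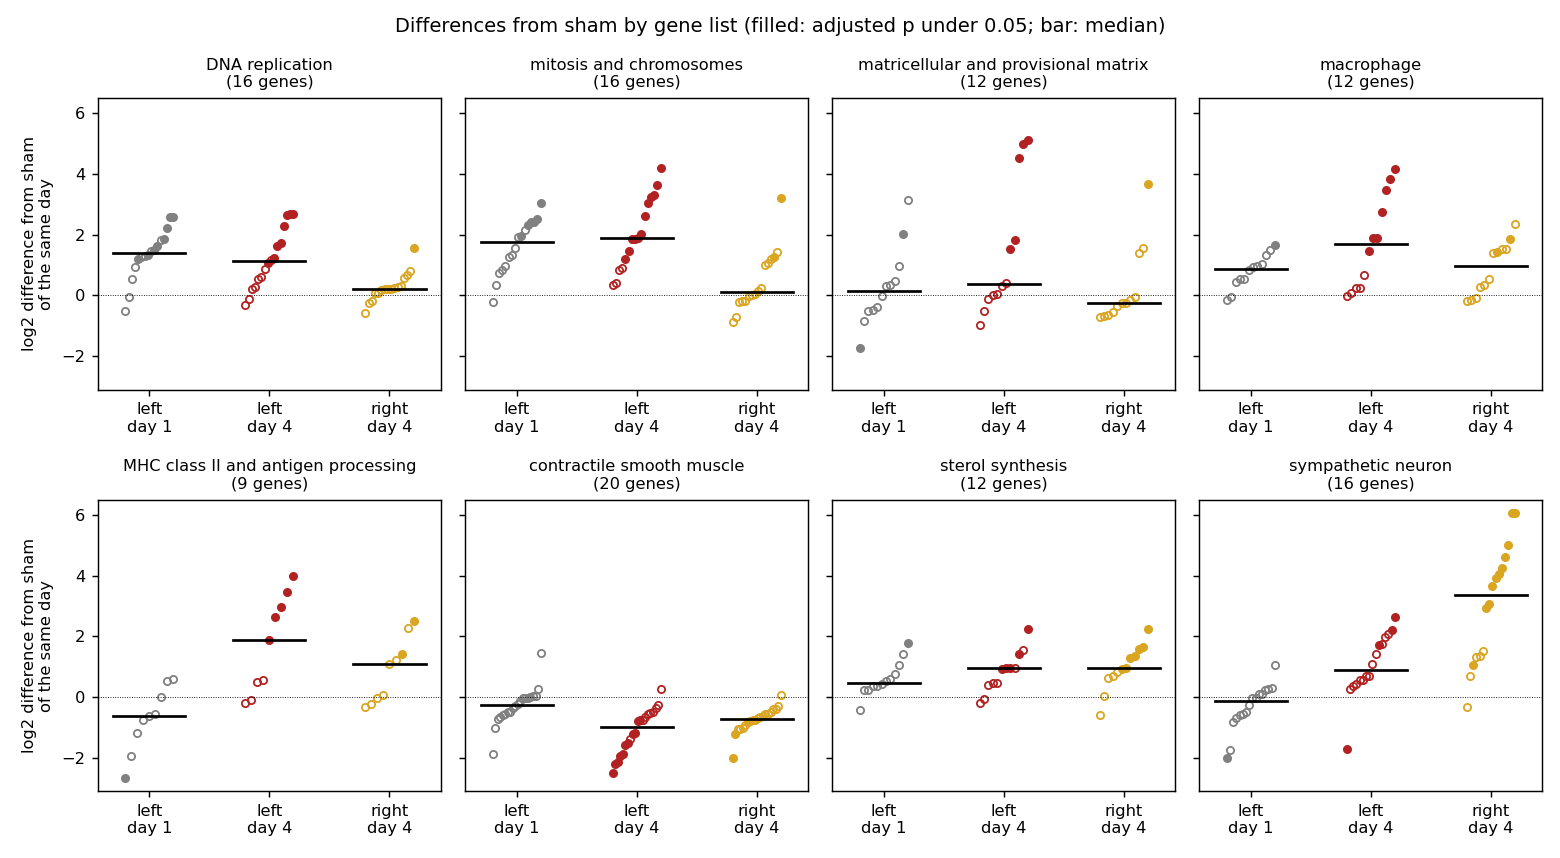
Log2 differences from sham arteries of the same day for the genes of 8 lists, in injured left arteries with gel on day 1 and day 4 and in the right arteries of the gel rats on day 4. Each point is a gene, filled where its adjusted p was under 0.05, and bars are medians. Class II medians are -0.64, 1.89 and 1.09, those of mitosis 1.74, 1.87 and 0.09, and those of the sympathetic neuron list -0.15, 0.88 and 3.35. The 2 day 4 columns share the sham arrays.

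The uninjured right artery gave a second control from the same animals, although it shares with the left neither the balloon nor the gel. Its summed sympathetic neuron markers (18349 to 40944) stood above those of left and sham arteries. Its summed adipocyte markers (16998 to 31900) were above sham (9740 to 12814) but overlapped the left (16442 to 21800). The labels tie no left array to a right one, so that both were fitted as separate groups, without pairing. Against sham, 246 genes were higher (6.94%) and 86 lower (2.43%) in the right artery. Against the right artery, 58 genes were higher (1.64%) and 124 lower (3.50%) in the left. The rises of Tnn (3.74, adjusted p = 0.00179), Col12a1 (2.86, 0.00108), Tfpi (2.06, 0.0114), Adora2b (2.28, 0.00418), Postn (1.59, 0.0106), Spp1 (2.08, 0.0185) and Vcam1 (1.67, 0.0185) held against it. So did those of Il1b (3.07, 0.0431), Ccl2 (2.48, 0.0455) and RT1-Ba (1.88, 0.0245), the 1 of 9 class II genes that passed here. In the right artery 2 of the 9 were themselves above sham, with a list median of 1.09. Among the falls, Bmp4 (-4.37, 0.00108), Adra1d (-2.50, 0.00278), Sult1a1 (-3.10, 0.00878) and Gpc3 (-3.50, 0.015) did. Only 1 of the 20 contractile genes, Gucy1b1 (-1.22, 0.0306), was lower in the left than in the right artery, where 3 of the 20 were themselves below sham. Myh11 was at -2.20 in the left and -1.07 in the right artery, and their difference of -1.13 did not pass (adjusted p = 0.141). Macrophage genes lay between, with right artery differences from sham of 1.86 for Lgals3 (adjusted p = 0.0043) and 1.41 for Ctss (adjusted p = 0.00485). Only 1 of the 12 macrophage genes and 2 of the 16 lymphocyte and pan-leukocyte genes were higher in the left than in the right artery. None of the 7 plasminogen system genes and none of the 10 complement genes passed against the right artery.

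Some values come from erratic probe sets. Those of Hmox1 and Cd74 are counted among the rises of their lists above, and Hmox1 has no other probe set tested. Apoe, for apolipoprotein E, read 0.1, 0.0 and 0.1 on the gel arrays and 3214 to 5235 (median 3947) on the sham arrays on its brightest probe set, and another probe set of Apoe rose by 2.99. Tuba1b, a tubulin, read 0.0, 167 and 0.0 on the gel arrays and 4557 to 9632 (median 7448) on the sham arrays. Snrnp70, a splicing protein, fell on one probe set (-4.09) and rose on another (2.49). Obp3, an odorant-binding protein, fell by 4.91 and 2.00 on its 2 probe sets. Of the genes called, 2 that rose and 5 that fell rest on such probe sets. Genes with 2 or more called probe sets moved the same way in 118 of 121 cases, a count that leaves out probe sets that did not pass. In Ptprc the other probe set differed by 0.39 (adjusted p = 0.393), in Ptpn6 by 1.38, in C5ar1 by -0.21, in Scn7a by -0.30, in Il1b by 1.85, in Vcam1 by 0.70 and in Cd3g by 1.69. In Fmod it differed by 0.12, in Pfkm by 0.08, in Mmp2 by 0.37, in Tbxa2r by -1.29 and in Bmp3 by -1.54. In Acsl4 it differed by 0.65, in Ucp2 by 0.10 and in Efemp1 by 0.98. Of several probe sets, those of Ccnd1 that did not pass differed by 0.86, 0.91 and -0.16, those of Agtr1a by 1.03 and 0.31, those of Hspa5 by 0.80 and 0.56, those of Npr1 by -0.56 and -0.87 and those of Atp2b1 by 0.66 and 0.17. One of 2 did not pass in Aif1 (0.39), Rfc4 (0.11), Itga7 (-1.40) and Hadha (0.06).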

How the data were processed

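RNA of pooled vessels was hybridised to Affymetrix rat arrays, 1 per pool. The deposited table holds linear intensities of 8799 probe sets on 40 arrays, which the authors had scaled so that the mean without the lowest and highest 2% is 500.0 on every array, as the values show. The software behind them is not given in the sources used here. Gene names came from the platform annotation (7006 probe sets with 1 symbol, 308 with several, 1426 with none), matched to RefSeq. Control probe sets were left out, values under 23.3 (the 20th percentile) were raised to it, log2 was taken, and the dimmest 2913 probe sets were left out, which left 5827. The deposited intensities hold no depth.

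Group means of 11 groups were fitted over all 40 arrays with limma 3.58.1 in R 4.3.3 (lmFit, eBayes), with Benjamini-Hochberg adjustment over all probe sets and a threshold of 0.05. The script was tested on simulated data. Intervals are 95% and two-sided. Named genes were taken from the 20 largest rises and falls, the 8 largest changes each way between days, and, from each list, up to 6 called members each way by p and 3 uncalled ones by level. The members and lists were chosen with earlier results of these data known. Alternatives covered scaling, floor, filter, erratic probe sets, weights, block and arrays left out.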

Additional observations from a re-analysis of the deposited data

Results flagged for a closer look

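Genes whose difference from sham was not the same on day 4 as on day 1 stand out because the test of the change itself passed (limma, adjusted p under 0.05). The change, day 4 minus day 1 on the log2 scale, was positive for Apod (5.26), Bmal1 (2.70), C3 (6.36), Cd3g (4.95), Cd74 (5.42), Cdh22 (5.28), Cfd (2.63), Cxcl13 (4.97), Efemp1 (3.78), Egr2 (3.91), Igf1 (3.89), Il2rb (4.20), Kdr (3.50), Mmp12 (3.73), Plau (2.33), RT1-Ba (4.17), RT1-DMb (3.38), RT1-Db1 (6.66), Scn7a (9.64), Tfpi (3.37), Thbs4 (5.39), Thy1 (4.69) and Tnn (4.66). It was negative for Adcy5 (-2.82), Adra1d (-3.0), Apoe (-7.01), Cryab (-2.06), Cspg4 (-2.04), Hspa1a (-3.81), Itga7 (-2.12), Nr1d1 (-2.40) and Snrnp70 (-3.85). The values of Apoe, Snrnp70, Igf1 and Cd74 come from erratic probe sets, nearly dark on part of the arrays. With 1 of 16 arrays left out in turn, the call of Igf1 held in 11 (adjusted p = 0.132 without gel day 1 replicate 2) and that of Snrnp70 in 3 (0.243 without gel day 4 replicate 1).

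In some genes 1 sham array of day 4 stood far from the other 5, by Dixon's criterion, which chance meets in about 1 in 20 groups. All 153 genes named were examined, so that several are expected to meet it by chance alone. The criterion was applied to log2 values after the floor of 23.3, while the intensities below are without the floor. For C3, Mmp9 and Scn7a part of the other sham arrays lay under the floor, and for Cxcl2 all of them did. The floor narrowed their spread, so that the 1 in 20 does not apply to these genes. It was above the others, in intensity, for C3 (replicate 2, 45.2 against 11.5 to 29.7), Cxcl2 (replicate 1, 29.3 against 5.4 to 9.9), Igf2r (replicate 6, 2014 against 1115 to 1378), Mmp9 (replicate 5, 119 against 20.0 to 28.5), Scn7a (replicate 1, 48.8 against 5.5 to 29.0), Sod2 (replicate 1, 412 against 207 to 254), Tbxa2r (replicate 2, 2808 against 1993 to 2165) and Thy1 (replicate 2, 1763 against 402 to 546). It was below the others for Bmpr1a (replicate 1, 207 against 349.8 to 467), Cd74 (replicate 5, 40.5 against 545 to 791), Cdc25b (replicate 2, 127 against 248 to 366), Cfd (replicate 3, 382 against 577 to 718), Hspa5 (replicate 2, 1223 against 2390.4 to 3375), Plau (replicate 5, 110.5 against 177 to 206) and RT1-Db1 (replicate 5, 129 against 271 to 380.1). The rule marks at most 1 array per gene, and replicates 1, 2 and 5 account for most of those marked. The groups of 3 gel arrays are too small for this criterion.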

How the results depend on the processing

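Of 3346 values of the 153 genes named, over all alternatives, 3220 kept direction and side of the threshold, 100 lost the threshold, 22 gained it and 4 changed sign. The sign changes were all in genes that did not pass: under quantile normalization Acta2 (0.05), Atp2a2 (0.02) and Thbd (-0.04) and, with the mean of the probe sets of a gene, Sparc (0.35). The main count of 1117 probe sets became 1831 with array weights, 691 with the replicate block, and 723 to 1066 with 1 array left out, the lowest without left gel replicate 1. The count of 141 that differed between days became 735 with array weights, 395 with only the groups compared, 295 without 4 tPA arrays, and 72 to 150 with 1 array left out. These 4 were replicate 1 of the left and right arteries of day 4 and replicate 2 of those of day 1. Their correlations with the rest of their group were -0.28, -0.11, 0.01 and -0.11. Some tPA arrays that were kept had values below 0 too (-0.03 and -0.02). The cause of the changes in these counts was not tested. Arrays of day 1 were left out, and the left artery was set against the right, by a choice made after seeing the data. The deviations of same-numbered gel and sham arrays from their group means had correlations of -0.01, -0.09 and -0.16. Whether a shared number stands for shared handling was not tested. The block of replicate numbers removed 27 calls of the genes named. Sham replicates 4, 5 and 6 share their number with no gel array of day 4, so that a comparison within numbers leaves them out. The count of 691 and the lost calls thus come with fewer sham arrays compared, and cannot be read as an effect of shared numbers. Scaling to one median or quantile normalization moved all probe sets by -0.10 (log2), and the share of higher among called went from 58.8% to 50% and 52.6%.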
